A study of Rattus norvegicus with 54 samples.

Results

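Liver RNA of male Sprague-Dawley rats kept on chow was compared between the 3 arrays labelled CHOW-INS and the 3 arrays labelled CHOW. These are 6 of the 54 arrays of the series and 6 of its 18 liver arrays, taken by their diet and tissue labels, and all 19800 named genes on the array were kept. The study fed rats chow, a high-fructose diet (labelled HF) or that diet supplemented with NDGA (labelled HF-NDGA), a compound from the creosote bush, and the labels give each diet a liver group with the letters INS and a liver group without them. What INS stands for is not given in the labels or the methods, so it is used here as a group name only. The CHOW-INS and CHOW groups share strain, sex, tissue and chow, and their diet labels differ in the letters INS alone. Their array titles also differ, in the first letter (T for CHOW-INS, C for CHOW) and in the running number. What the titles encode is not given, and a difference tied to them cannot be told apart from INS. The treatment protocol puts the rats on their diet for 16 weeks, the design text gives 8 weeks, and per the methods the rats were fasted before the tissue was taken. Per the methods, RNA of the rats of a group was pooled in equal amounts and hybridized 3 times, so a replicate here is a repeat array of 1 pool. Each p-value below therefore measures the spread between arrays and not between rats, and a difference between the pools can also be a difference between the rats that went into them.

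The liver answers to hormones and to the time since the last meal within hours. Growth hormone from the pituitary acts on hepatocytes through JAK2 and the transcription factor STAT5, which raise Socs2, Cish and Igf1 and lower Bcl6. Insulin raises the enzymes of fat synthesis and lowers the genes of glucose output, while the SREBP factors govern fat and sterol synthesis and the receptor Nr0b2 (SHP) holds bile acid synthesis down.

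All 6 arrays carried liver RNA by their markers. The 14 hepatocyte markers were all detected and none of them passed the test after quantile normalization. Their summed intensity was 674000 to 694000 on the CHOW-INS arrays and 614000 to 696000 on the CHOW arrays. With each array centred on its median instead, 10 of the 14 rose and 0 fell, with a median change of 0.55 log2 units. The deposited intensities end at 65505, and how far that ceiling limits the sum was not tested. Detection, a deposited p-value under 0.05, reached 52.42%, 57.65% and 56.98% of the probes on the CHOW-INS arrays, against 59.74%, 59.45% and 60.25% on the CHOW arrays. Before normalization the median intensity was 79, 112 and 100 on the CHOW-INS arrays and 128.5, 123 and 147 on the CHOW arrays. All 3 CHOW-INS arrays were thus dimmer than the CHOW arrays, and CHOW-INS replicate 1 was the dimmest of the 18 liver arrays. The root mean square distance between arrays over all genes averaged 0.504 log2 units between CHOW-INS and CHOW arrays (0.394 to 0.585 over 9 pairs), 0.388 among the CHOW-INS arrays and 0.374 among the CHOW arrays.

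Of 19800 genes, 2431 (12.3%) differed at an adjusted p under 0.05 in limma, with 1792 (9.05%) higher and 639 (3.23%) lower in CHOW-INS livers. With a fold of at least 2 in addition 177 genes passed, 70 of them higher (0.354% of all genes) and the rest lower (0.54%). The 3 CHOW-INS arrays lay wholly above or below the 3 CHOW arrays in 6894 genes (34.8%), and in 2399 of the 2431. The brighter group was detected on all 3 arrays for 2037 of the called genes and on no array for 282. The excess of higher over lower calls depended on the scaling. Rises made up 73.7% of the calls after quantile normalization, 87.2% when each array was centred on its median and 16.2% without scaling, where the median gene shifted by 0.00, 0.15 and -0.12 log2 units. The median change of the 21 apolipoprotein and lipoprotein assembly genes was 0.00, 0.52 and 0.06 under the same 3 scalings. The count of 2431 became 739 without CHOW-INS replicate 1, 1471 without CHOW-INS replicate 2, 1083 without CHOW-INS replicate 3, 1138 without CHOW replicate 1, 927 without CHOW replicate 3 and, among the other liver arrays that share the estimate of the spread, 3833 without HF-NDGA replicate 3. Many genes below are therefore given with their values on every array, and the others with their change alone. Whichever of the 6 arrays was left out, 571 genes were called, 462 of them higher.

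After quantile normalization of all arrays, immediate early genes (12 of 25) and cholesterol genes (10 of 25) held the highest shares of rises among the pathway lists. P450 enzymes (6 of 28), NRF2 targets (4 of 18) and bile acid genes (4 of 19) held the highest shares of falls, and apolipoprotein genes held no call in either direction. This order depended on the scaling and on single arrays. With median centring the proteasome (33 of 39) and cholesterol (22 of 25) lists held more rises than the immediate early list (17 of 25), and falls came to 2 of 28 P450 genes, 1 of 18 NRF2 targets and 1 of 19 bile acid genes, against 3 of 19 clock genes. Without scaling 6 cholesterol and 5 immediate early genes rose, and clock genes held 4 falls of 19. Without CHOW-INS replicate 1 the rises were 5 in the cholesterol and 4 in the immediate early list. The pericentral hepatocyte (4 of 15), growth hormone (4 of 18) and bile acid (4 of 19) lists then held larger shares of rises. In the same fit rises became 2 of 22 for endoplasmic reticulum stress, 1 of 16 for heat shock and 0 of 22 for the cell cycle. They became 1 of 22 for interferon-induced genes and 0 of 74 for the respiratory chain. Without CHOW replicate 3 the growth hormone (5 of 18) and pericentral (4 of 15) lists exceeded the immediate early (6 of 25) and cholesterol (5 of 25) lists. With the 6 chow arrays alone, 6 of 25 genes rose in each of the latter, against 5 of 15 pericentral genes. The lists are described by their counts, beside the 9.05% of all genes that rose and the 3.23% that fell.

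**Figure D1:**
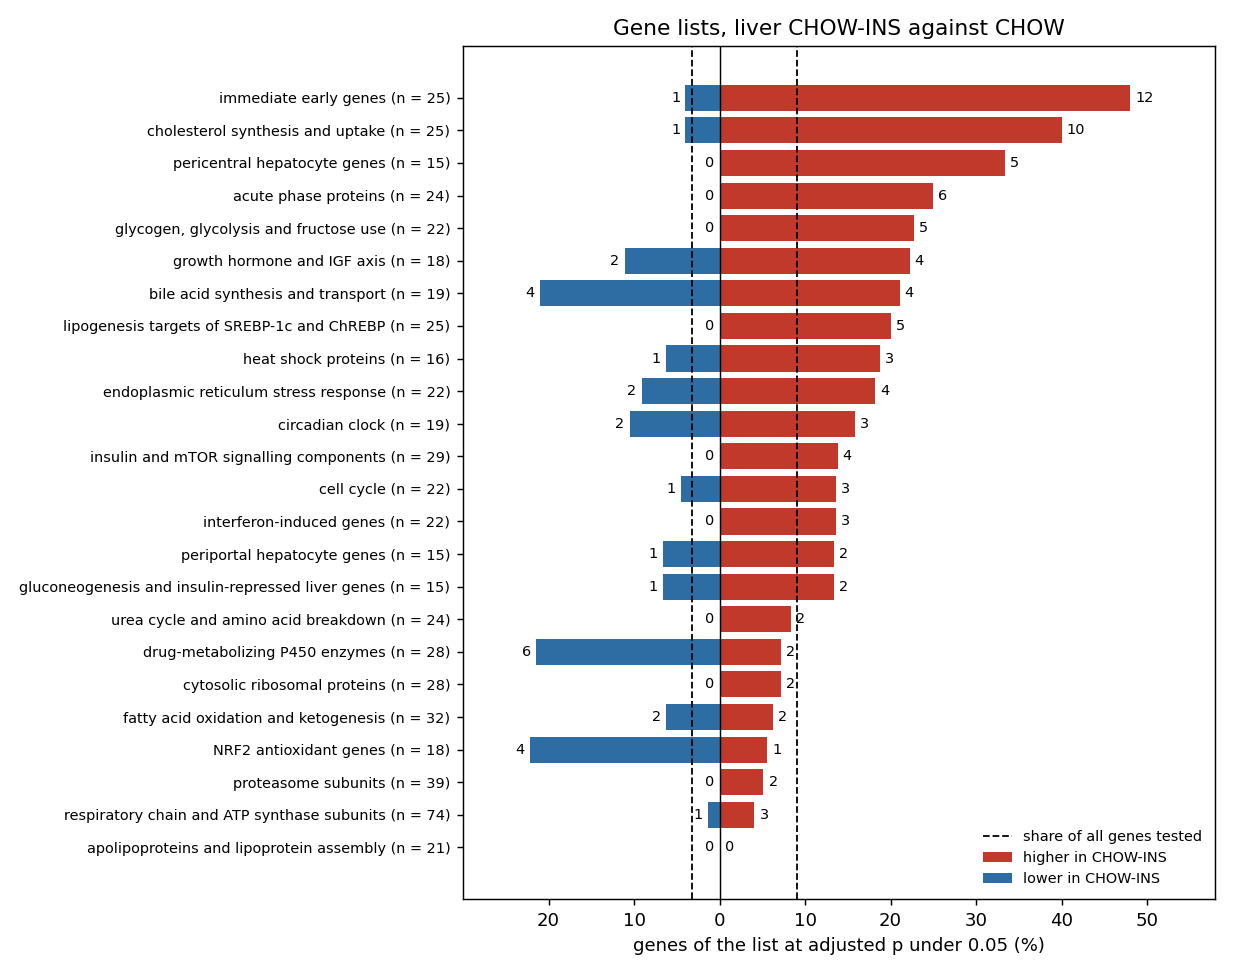
Bars give the percent of each pathway list (n genes measured) at an adjusted p under 0.05, to the right for genes higher and to the left for genes lower in CHOW-INS livers, with the number of genes beside each bar. Dashed lines mark the shares over all 19800 genes, 9.05% higher and 3.23% lower, and the bars of the immediate early list (12 of 25 higher) and the cholesterol list (10 of 25 higher) reach farthest to the right.

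Socs2 and Cish, feedback genes of growth hormone signalling, rose in CHOW-INS livers and the STAT5-repressed factor Bcl6 fell. Socs2, an inhibitor of growth hormone receptor signalling that STAT5 induces, had normalized intensities of 327, 330 and 358 on the CHOW-INS arrays, against 99, 117 and 74 on the CHOW arrays. Cish, a second STAT5-induced inhibitor of the same family, measured 1997, 1882 and 1824 on the CHOW-INS arrays, against 917, 908 and 788 on the CHOW arrays. In both genes every CHOW-INS array stood above every CHOW array. The log2 change was 1.83 for Socs2 (SE 0.21, adjusted p = 0.000299) and 1.13 for Cish (SE 0.12, adjusted p = 0.000187), where SE is the moderated standard error of limma from 3 arrays a group. The 250 bases before the start of Cish are shown because they hold 4 matches, in capitals, to TTCNNNGAA, the form of site that STAT factors bind. The pattern, in which N is any base, reads the same on both strands.

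Cish, chr8:116850719-116850968, plus strand, GRCr8: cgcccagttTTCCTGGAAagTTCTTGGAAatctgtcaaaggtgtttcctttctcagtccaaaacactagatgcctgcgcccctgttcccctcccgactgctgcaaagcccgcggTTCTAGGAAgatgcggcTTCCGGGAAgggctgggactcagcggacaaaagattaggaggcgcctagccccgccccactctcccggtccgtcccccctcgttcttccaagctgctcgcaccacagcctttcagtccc

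The matches start 241, 230, 136 and 119 bases before the start site and do not overlap. A match was held by 7.67% of the 33469 windows of this length in the RefSeq promoter table, and 2 windows held 4 or more. Socs2 is not in that table, and the windows of Bcl6 and Igfbp2, of the same gene list, held no match. A match is a description of the letters and was not tested as a site.

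Onecut1 (HNF6), a hepatocyte transcription factor that growth hormone raises in rat liver, measured 2493, 2398 and 2392 on the CHOW-INS arrays, against 911, 890 and 903 on the CHOW arrays. The change of 1.43 (SE 0.04, adjusted p = 2.63e-09) had the smallest adjusted p among the genes of this list. Bcl6, a repressor that competes with STAT5 at shared sites, measured 333, 285 and 301 on the CHOW-INS arrays, against 913, 861 and 812 on the CHOW arrays, a change of -1.49 (SE 0.12, adjusted p = 1.19e-05). Igfbp2, a binding protein of insulin-like growth factors, measured 121, 147 and 143 on the CHOW-INS arrays, against 289, 321 and 281 on the CHOW arrays, a change of -1.12 (SE 0.07, adjusted p = 3.27e-06). The groups did not overlap in any of these genes. Igfbp1, a binding protein that insulin represses, also rose, by 0.51 (SE 0.08, adjusted p = 0.00224). Igf1, the main circulating product of the axis, measured 6405, 7253 and 6842 on the CHOW-INS arrays, against 7497, 7664 and 6646 on the CHOW arrays, with overlap (adjusted p = 0.511). Of 18 genes of the growth hormone and IGF list, 4 rose, 2 fell and 12 did not pass, with a median change of 0.10 against 0.00 over all genes. The 4 rises and both falls were called under each scaling and with either CHOW-INS replicate 1 or CHOW replicate 3 left out.

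**Figure D2:**
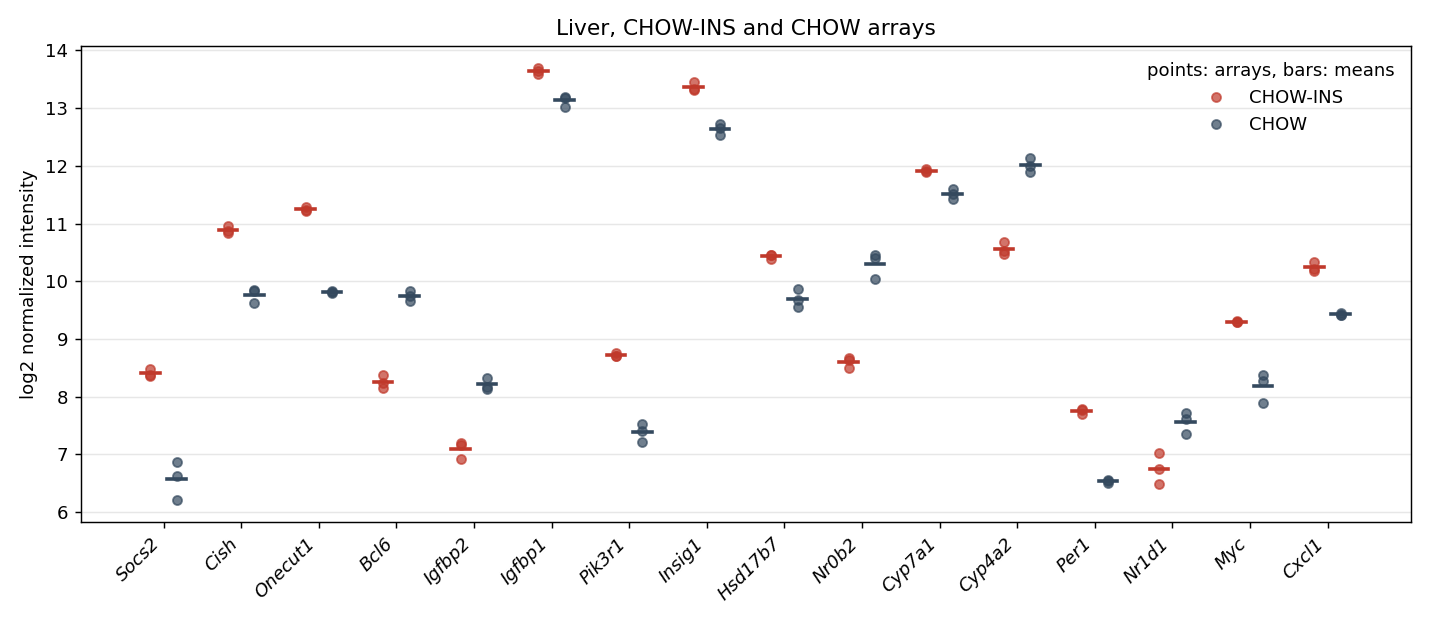
Points are the log2 normalized intensities of 16 genes on the 3 CHOW-INS arrays (red, left) and the 3 CHOW arrays (grey, right), and short bars are group means. The groups stand apart in each gene shown, with Socs2 at 327 to 358 on the CHOW-INS arrays against 74 to 117 on the CHOW arrays, and Bcl6 at 285 to 333 against 812 to 913.

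A subunit of the insulin signalling kinase rose while most genes of glucose output did not pass the test. Pik3r1, the regulatory subunit of phosphoinositide 3-kinase, measured 430, 415 and 419 on the CHOW-INS arrays, against 185, 169 and 148 on the CHOW arrays. It was more than 2-fold higher with no overlap, by 1.34 (SE 0.11, adjusted p = 2.73e-05). G6pc1, which releases free glucose, measured 6189, 5140 and 5546 on the CHOW-INS arrays, against 8262, 6431 and 8635 on the CHOW arrays. Its change of -0.46 (SE 0.10, adjusted p = 0.0163) lost the call without CHOW-INS replicate 2, CHOW replicate 1 or CHOW replicate 3 and became 0.08 with median centring. Irs2, an insulin receptor substrate that insulin represses, rose by 0.20 (SE 0.03, adjusted p = 0.00409), although the mean of its probes gave -0.14. Tat, which breaks down tyrosine, measured 3920, 4085 and 4209 on the CHOW-INS arrays, against 3388, 3694 and 3272 on the CHOW arrays (adjusted p = 0.0758). Pck1 was saturated on some arrays of each group and gets no fold. Of 15 genes of glucose output and insulin repression, 2 rose, 1 fell and 12 did not pass, with a median change of 0.05.

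Of 22 genes of glycogen, glycolysis and fructose use, 5 rose and none fell at an adjusted p under 0.05. Among these were Pfkfb1, which sets the level of fructose 2,6-bisphosphate (0.42, adjusted p = 0.0161), Ppp1r3g, which directs a phosphatase to glycogen (0.60, adjusted p = 0.0224), Phka2, a regulator of phosphorylase kinase (0.33, adjusted p = 0.0317, but -0.15 without scaling), and the fructose carrier Slc2a5. Slc2a5 was detected on 1 of the CHOW-INS arrays and on no CHOW array, and its level was at least 1.32-fold higher (adjusted p = 0.00432). Without CHOW-INS replicate 1 the 5 rises became 2. Of 29 components of insulin and mTOR signalling, 4 rose and none fell at an adjusted p under 0.05, and the 4 became 2 without CHOW-INS replicate 1. Trib3, an inhibitor of AKT, measured 407, 349 and 351 on the CHOW-INS arrays, against 253, 239 and 285 on the CHOW arrays (0.51, adjusted p = 0.011). Grb10, an adaptor that restrains the insulin receptor, measured 264, 200 and 196 on the CHOW-INS arrays, against 157, 128 and 173 on the CHOW arrays (0.53, adjusted p = 0.0306). The groups did not overlap in either gene, and the call of both was lost without CHOW-INS replicate 1.

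Among genes of sterol synthesis and uptake rises outnumbered falls. Insig1, which retains the SREBP complex in the endoplasmic reticulum and is itself an SREBP target, measured 11280, 10205 and 10253 on the CHOW-INS arrays, against 6431, 5948 and 6754 on the CHOW arrays. Hsd17b7, which acts in the late steps of the pathway, measured 1409, 1345 and 1406 on the CHOW-INS arrays, against 751, 817 and 933 on the CHOW arrays. Both genes stood apart between the groups, with changes of 0.73 for Insig1 (SE 0.12, adjusted p = 0.00398) and 0.74 for Hsd17b7 (SE 0.11, adjusted p = 0.00226). The sterol carrier Stard4 rose by 0.40 (SE 0.03, adjusted p = 6.18e-06). Idi1, Mvd, Sqle and Acat2 of the synthesis pathway rose by 0.53, 0.40, 0.25 and 0.25, though the arrays of Acat2 overlapped. Lss, the enzyme after Sqle, was the 1 member that fell (-0.41, adjusted p = 0.0456), and the value became 0.04 with median centring. Hmgcs1, an early enzyme of the pathway, measured 25358, 32423 and 34582 on the CHOW-INS arrays, against 30756, 32281 and 31383 on the CHOW arrays (adjusted p = 0.8).

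Of 25 cholesterol genes, 10 rose, 1 fell and 14 did not pass, with a median change of 0.21. The 10 rises became 5 without CHOW-INS replicate 1 and 5 without CHOW replicate 3, and Insig1, Hsd17b7 and Stard4 kept their call whichever of the 6 arrays was left out.

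Among fat synthesis genes Lpin1 and Scd had calls that held whichever of the 6 arrays was left out. Lpin1, a phosphatidate phosphatase and coactivator, measured 400, 326 and 338 on the CHOW-INS arrays, against 228, 180 and 171 on the CHOW arrays (0.88, SE 0.12, adjusted p = 0.000969). Scd, which desaturates stearate, measured 339, 348 and 335 on the CHOW-INS arrays, against 240, 264 and 229 on the CHOW arrays (0.48, SE 0.06, adjusted p = 0.000513). The groups were separate in both genes, although the other probes of Scd gave -0.05 and -0.19. Fasn, the fatty acid synthase, rose by 0.41 (adjusted p = 0.0191) and Mlxipl, the glucose-sensing factor ChREBP, by 0.28 (adjusted p = 0.0154). Srebf1, the lipogenic SREBP factor, measured 1449, 1281 and 1217 on the CHOW-INS arrays, against 1185, 1017 and 1149 on the CHOW arrays (adjusted p = 0.0971). Of 25 lipogenesis genes, 5 rose, none fell at an adjusted p under 0.05 and 20 did not pass, with a median change of 0.14. The 5 rises became 3 without CHOW-INS replicate 1, and without scaling 2 rose and 1 fell.

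Of 19 bile acid genes, 4 rose, 4 fell and 11 did not pass, and with median centring 10 rose and 1 fell. Nr0b2, the repressor of bile acid synthesis that bile acids induce through FXR, measured 361, 407 and 400 on the CHOW-INS arrays, against 1407, 1353 and 1046 on the CHOW arrays. The CHOW-INS arrays were all below the CHOW arrays, and the change was -1.69 (SE 0.11, adjusted p = 3.27e-06). Its call held whichever of the 6 arrays was left out and under each scaling. Of the synthesis enzymes, Cyp7a1, Cyp8b1 and Cyp7b1 rose. Cyp7a1, the rate-limiting enzyme of the classical pathway, measured 3798, 3953 and 3858 on the CHOW-INS arrays, against 2741, 2911 and 3105 on the CHOW arrays. Cyp8b1, which makes the precursor of cholic acid, measured 9593, 10192 and 10529 on the CHOW-INS arrays, against 7918, 7307 and 8050 on the CHOW arrays. Cyp7b1, of the alternative pathway, measured 154.1, 167.7 and 174.1 on the CHOW-INS arrays, against 83.0, 95.9 and 102.7 on the CHOW arrays. These enzymes were higher on every CHOW-INS array, by 0.41 for Cyp7a1 (SE 0.07, adjusted p = 0.00422), 0.38 for Cyp8b1 (SE 0.06, adjusted p = 0.00202) and 0.82 for Cyp7b1 (SE 0.12, adjusted p = 0.00179). Among exporters of the canalicular membrane the sterol exporter Abcg5 rose by 0.47 (adjusted p = 0.00348). The other exporters called were lower, with -0.44 for the bile salt pump Abcb11 (adjusted p = 0.000513), -0.36 for the phospholipid exporter Abcb4 (adjusted p = 0.0111) and -0.23 for the conjugate exporter Abcc2 (adjusted p = 0.0279), and with median centring these values became 0.11, 0.09 and 0.31.

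The 250 bases before the start of Nr0b2 are shown because it was the 1 gene among the 15 largest falls that kept its call without CHOW replicate 3, with the 1 match to TTCNNNGAA in capitals.

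Nr0b2, chr5:151062910-151063159, plus strand, GRCr8: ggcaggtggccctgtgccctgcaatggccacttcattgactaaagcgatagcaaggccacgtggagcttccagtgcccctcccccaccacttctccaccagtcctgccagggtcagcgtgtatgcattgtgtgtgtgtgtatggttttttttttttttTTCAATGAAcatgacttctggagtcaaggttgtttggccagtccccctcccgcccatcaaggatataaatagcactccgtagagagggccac

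The match starts 92 bases before the start site, a TATAAA stretch starts at 29 bases and a CACGTG stretch at 193 bases before it. TATAAA occurred in 8.06% and CACGTG in 5.59% of all 33469 windows.

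Fatty acid oxidation showed a large change in 1 gene. Cyp4a2, an omega-hydroxylase of fatty acids under PPARalpha control, measured 1419, 1635 and 1471 on the CHOW-INS arrays, against 4482, 4076 and 3812 on the CHOW arrays, a change of -1.45 (SE 0.16, adjusted p = 0.000165). The groups were far apart, although probes of the closely related Cyp4a genes may share signal. Angptl4, an inhibitor of lipoprotein lipase, rose by 0.44 (SE 0.06, adjusted p = 0.0012). Fgf21, a fasting hormone, measured 277, 291 and 281 on the CHOW-INS arrays, against 205, 221 and 184 on the CHOW arrays (0.48, adjusted p = 0.0361), and lost its call without any of 5 of the 6 arrays. Ech1, of fatty acid oxidation, changed by -0.35 (adjusted p = 0.0485) and by 0.16 with median centring. Of 32 genes, 2 rose, 2 fell and 28 did not pass, with a median of -0.04.

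Clock genes moved in both directions. Per1, a clock repressor that also answers acutely to hormones, measured 218, 209 and 222 on the CHOW-INS arrays, against 94, 93 and 91 on the CHOW arrays. Usp2, a clock-controlled deubiquitinase, measured 631, 518 and 524 on the CHOW-INS arrays, against 288, 252 and 285 on the CHOW arrays. Nr1d1 (REV-ERBalpha), which represses Bmal1, measured 130.2, 89.5 and 107.3 on the CHOW-INS arrays, against 209.0, 163.8 and 195.4 on the CHOW arrays. Per1 and Usp2 were higher and Nr1d1 lower with no overlap, with changes of 1.22 for Per1 (SE 0.09, adjusted p = 5.22e-06), 1.02 for Usp2 (SE 0.12, adjusted p = 0.000361) and -0.81 for Nr1d1 (SE 0.13, adjusted p = 0.00251). Ciart, a repressor of CLOCK and BMAL1, measured 370, 335 and 305 on the CHOW-INS arrays, against 574, 428 and 636 on the CHOW arrays (-0.68, SE 0.18, adjusted p = 0.0336), a call that held without CHOW replicate 2 and was lost without any of the other 5 arrays. Bhlhe40, another repressor, rose by 0.26 (adjusted p = 0.0474), a call lost without any array. Bmal1 measured 1027, 1094 and 1096 on the CHOW-INS arrays, against 981, 991 and 969 on the CHOW arrays (adjusted p = 0.27). Noct (nocturnin), a rhythmic gene outside this list, measured 162, 160 and 162 on the CHOW-INS arrays, against 62, 80 and 72 on the CHOW arrays (1.19, SE 0.12, adjusted p = 0.000138). Of 19 clock genes, 3 rose, 2 fell and 14 did not pass, and no time of day is given for the tissue. With the 6 chow arrays alone 2 rose and 0 fell, so the calls of Nr1d1 and Ciart were lost there.

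The upstream bases of Ciart are shown for their 3 matches, in capitals, to the E-box CACGTG that CLOCK and BMAL1 bind.

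Ciart, chr2:186112247-186112496, minus strand, GRCr8: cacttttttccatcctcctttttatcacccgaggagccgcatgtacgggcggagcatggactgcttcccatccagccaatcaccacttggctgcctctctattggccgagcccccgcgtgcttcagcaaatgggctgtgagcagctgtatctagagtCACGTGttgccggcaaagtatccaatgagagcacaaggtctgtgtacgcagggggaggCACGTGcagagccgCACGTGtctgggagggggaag

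The matches start 93, 35 and 21 bases before the start site, and 17 of the 33469 windows held 3 or more. Bhlhe40, whose value moved the other way, held 1 match, 220 bases before its start.

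Of 25 immediate early genes, 12 rose and 1 fell, with a median change of 0.30. Myc, a growth factor-induced transcription factor, measured 633, 630 and 625 on the CHOW-INS arrays, against 333, 309 and 238 on the CHOW arrays (1.12, SE 0.15, adjusted p = 0.000971). Gadd45a, a stress and growth arrest gene, measured 4187, 4174 and 4087 on the CHOW-INS arrays, against 2863, 2858 and 3139 on the CHOW arrays (0.49, SE 0.06, adjusted p = 0.000553). Jund, a subunit of the AP-1 factor, measured 5763, 5837 and 5610 on the CHOW-INS arrays, against 4040, 4466 and 4316 on the CHOW arrays (0.43, SE 0.06, adjusted p = 0.000955). These and Dusp1, a phosphatase of MAP kinases (0.30, adjusted p = 0.00348), stood apart and kept their call whichever of the 6 arrays was left out. Atf3, Gadd45b, Klf4, Junb and Jun rose by 0.77, 0.80, 0.81, 0.54 and 0.53, and Klf6 and Nr4a2 by 0.34 and 0.19, although without scaling the last pair became -0.08 and -0.22. Fosl2 among the rises and Fosl1, the 1 fall, were detected on no array of either group. The classical members Egr1 and Fos did not pass the test. Egr1 measured 226, 609 and 435 on the CHOW-INS arrays, against 888, 914 and 1127 on the CHOW arrays (-1.31, adjusted p = 0.0815). Its CHOW-INS arrays lay wholly below its CHOW arrays, opposite to the rises, and its change was the lowest of the list. Fos measured 190, 133 and 137 on the CHOW-INS arrays, against 200, 155 and 184 on the CHOW arrays (adjusted p = 0.23). Without CHOW-INS replicate 1 the 12 rises became 4, and without CHOW replicate 3 they became 6.

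Of 24 acute phase genes, 6 rose, none fell at an adjusted p under 0.05 and 18 did not pass, with a median change of 0.06. The 6 rises became 15 with median centring, 2 without scaling and 4 with the 6 chow arrays alone. Stat3, the factor that carries the interleukin-6 signal, measured 462, 442 and 474 on the CHOW-INS arrays, against 269, 257 and 262 on the CHOW arrays. A2m, a protease inhibitor that is a major acute phase protein in rats, measured 404, 399 and 403 on the CHOW-INS arrays, against 239, 247 and 283 on the CHOW arrays. The chemokine Cxcl1 measured 1292, 1185 and 1156 on the CHOW-INS arrays, against 697, 686 and 679 on the CHOW arrays. Each was higher on all CHOW-INS arrays, by 0.81 for Stat3 (SE 0.11, adjusted p = 0.000929), 0.65 for A2m (SE 0.07, adjusted p = 0.000136) and 0.82 for Cxcl1 (SE 0.13, adjusted p = 0.00255). The interleukin-1 antagonist Il1rn and the receptor Il6r rose by 0.36 each and Crp by 0.12.

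The endoplasmic reticulum stress list held rises and falls. Ppp1r15a (GADD34), which restores translation after stress, measured 511, 347 and 784 on the CHOW-INS arrays, against 1719, 1526 and 1760 on the CHOW arrays (-1.68, SE 0.46, adjusted p = 0.0369). The secreted factor Manf measured 141, 83 and 205 on the CHOW-INS arrays, against 345, 312 and 280 on the CHOW arrays (-1.22, SE 0.37, adjusted p = 0.0495). Both lay wholly below the CHOW arrays, but the CHOW-INS arrays were spread widely and the calls rested on several arrays, among them CHOW-INS replicate 1 and CHOW replicate 3. Xbp1, a factor of the unfolded protein response, rose by 0.30 (SE 0.06, adjusted p = 0.00967). Asns, an asparagine synthetase that ATF4 induces, was detected on 1 CHOW-INS array and on no CHOW array and was at least 1.16-fold higher (adjusted p = 0.0327). Of 22 genes, 4 rose and 2 fell, and Chac1 among the rises was detected on no array. Among 16 heat shock genes, Chordc1, Hspa4 and Hsph1 rose by 0.28, 0.31 and 0.25, and the small heat shock protein Hspb1 fell by 0.48 (SE 0.08, adjusted p = 0.00446).

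Drug-metabolizing P450 enzymes held 6 falls and 2 rises among 28 genes, whereas with median centring 13 rose and 2 fell. Both rises were lost without CHOW-INS replicate 1 or CHOW replicate 3 and without scaling. Cyp2c12, a steroid hydroxylase that in rats depends on the pattern of growth hormone and is predominant in females, measured 5132, 5367 and 5564 on the CHOW-INS arrays, against 9901, 10389 and 9980 on the CHOW arrays. Cyp2c6v1, of the same family, measured 1244, 1073 and 1132 on the CHOW-INS arrays, against 1857, 1756 and 1946 on the CHOW arrays. Both fell with no overlap, with changes of -0.91 for Cyp2c12 (SE 0.08, adjusted p = 2.01e-05) and -0.69 for Cyp2c6v1 (SE 0.09, adjusted p = 0.000547), but with median centring neither passed (-0.36 and -0.21). Members of the Cyp2c family are close in sequence, so their probes may share signal, and the male-predominant Cyp2c11 was saturated on all 6 arrays. Cyp2d4, Cyp2c22 and Cyp3a62 changed by -0.29, -0.22 and -0.33, which became 0.22, 0.26 and 0.16 with median centring. Por, the electron donor of the P450 enzymes, rose by 0.44 (adjusted p = 0.0159), and Cyp1a1 and Cyp2j4 were called but detected on no array.

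Of 18 NRF2 targets, 4 fell and 1 rose, whereas with median centring 7 rose and 1 fell. The 4 falls became 2 without CHOW-INS replicate 1 or CHOW replicate 3. Osgin1, an oxidative stress-induced growth inhibitor, measured 16735, 17154 and 17329 on the CHOW-INS arrays, against 25049, 25049 and 25453 on the CHOW arrays (-0.56, SE 0.03, adjusted p = 1.21e-06). The groups were far apart, yet the value was -0.01 with median centring. Srxn1 (-0.48), Gpx2 (-0.43) and Akr7a3 (-0.24) were the other falls, with Akr7a3 at 0.30 under centring and Gpx2 at 0.16 when its probes were averaged, while the quinone reductase Nqo1 rose by 0.38 (adjusted p = 0.0269).

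Genes of the hepatocytes around the central vein rose in part. Glul, which makes glutamine, measured 10578, 9487 and 9833 on the CHOW-INS arrays, against 7460, 6787 and 7822 on the CHOW arrays (0.44, SE 0.06, adjusted p = 0.00117). Oat, an aminotransferase of ornithine, measured 17769, 18684 and 19107 on the CHOW-INS arrays, against 11843, 13059 and 12411 on the CHOW arrays (0.57, SE 0.06, adjusted p = 0.000156). The glutamate carrier Slc1a2 measured 307, 282 and 303 on the CHOW-INS arrays, against 200, 186 and 173 on the CHOW arrays (0.68, SE 0.11, adjusted p = 0.00283). With the ammonium carrier Rhbg (0.48, adjusted p = 0.0172) and Cyp7a1, 5 of 15 pericentral genes rose and none fell at an adjusted p under 0.05. Without scaling 3 of the 15 rose and 1 fell, and with median centring 9 rose and 0 fell. Of 15 periportal genes, Aldh1b1 and Hsd17b6 rose, by 0.62 and 0.45, and Pigr fell (-0.40), a value that became 0.16 with median centring. Of 24 genes of the urea cycle and amino acid breakdown, Oat and the histidine-degrading Uroc1 (0.33) rose.

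The largest rises by the rule for named genes included genes outside the pathway lists. Abhd3, a phospholipase, measured 162, 148 and 147 on the CHOW-INS arrays, against 17, 19 and 23 on the CHOW arrays, where it was not detected, so that it was at least 2.22-fold higher (adjusted p = 2.26e-05). Mmd2, a membrane protein of the progestin and adipoQ receptor family, measured 517.3, 508.2 and 550.2 on the CHOW-INS arrays, against 143.7, 150.8 and 102.1 on the CHOW arrays (2.01, SE 0.18, adjusted p = 4.21e-05). Amhr2, the receptor of anti-Müllerian hormone, measured 334, 285 and 306 on the CHOW-INS arrays, against 78, 85 and 115 on the CHOW arrays (1.75, SE 0.15, adjusted p = 2.9e-05). In all 3 genes each CHOW-INS array was higher than each CHOW array, which the rule for the largest rises requires. Dpt (dermatopontin), a matrix protein, was bright in both groups, with 10795, 11280 and 11594 on the CHOW-INS arrays, against 3974, 3847 and 4403 on the CHOW arrays (1.46, SE 0.05, adjusted p = 1.52e-08). Gdf15, a stress-induced secreted factor that lowers food intake, measured 589, 507 and 502 on the CHOW-INS arrays, against 211, 192 and 224 on the CHOW arrays (1.35, SE 0.15, adjusted p = 0.000217). Hgd, of tyrosine breakdown, measured 2829, 3081 and 3014 on the CHOW-INS arrays, against 1155, 1684 and 644 on the CHOW arrays (1.46, SE 0.37, adjusted p = 0.0268). The CHOW arrays of Hgd spread over more than a 2-fold range and its call was lost without any of 5 of the 6 arrays, while Dpt and Gdf15 kept theirs throughout. The dehydrogenase Sdr16c6 (1.48), the phosphatase Dusp26 (1.41), the sulfotransferase Sult1c2 (1.32) and the glypican Gpc3 (1.27) were also among the 15, and the matrix protein Efemp1 was at least 2.03-fold higher.

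The largest falls differed from the rises in their spread. Tp53tg5 measured 38, 37 and 171 on the CHOW-INS arrays, against 382, 353 and 312 on the CHOW arrays (-2.48, SE 0.67, adjusted p = 0.0351). Tpsb2, a mast cell tryptase, measured 338, 257 and 687 on the CHOW-INS arrays, against 1680, 1843 and 1667 on the CHOW arrays (-2.15, SE 0.60, adjusted p = 0.0387). Penk, the precursor of opioid peptides, measured 153, 89 and 265 on the CHOW-INS arrays, against 480, 486 and 705 on the CHOW arrays (-1.84, SE 0.47, adjusted p = 0.028). In each of them CHOW-INS replicate 3 lay between the other CHOW-INS arrays and the CHOW arrays. The same order, with CHOW-INS replicate 3 the highest of its group, was found in 73 of the genes that fell at least 2-fold, and the median SD within a group was 0.41 log2 units for CHOW-INS and 0.21 for CHOW. In the 70 genes that rose at least 2-fold these SDs were 0.12 and 0.19. Of the 2-fold falls 16 stayed called without CHOW-INS replicate 1 and 12 without CHOW replicate 3, and of the 70 rises 46 and 48. The other named falls were Arhgdig (-2.25), Mas1l (-2.02), Cfap90 (-1.98), Serpinb9d (-1.90), the carrier of large neutral amino acids Slc7a5 (-1.62), the olfactory receptor Or8u3 (-1.80), the splicing factor Esrp1 (-1.78) and Kiaa1614 (-1.66), with Prkag3 at least 1.19-fold and Defb51 at least 1.01-fold lower. The 15 hold Nr0b2 and Ppp1r15a as well, and all but Nr0b2 lost their call without CHOW replicate 3. The counts with the fold of 2, 177 genes in all, became 67 without CHOW-INS replicate 1, 114 without CHOW replicate 1, 297 without CHOW replicate 2, 59 without CHOW replicate 3 and 290 without HF-NDGA-INS replicate 3.

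**Figure D3:**
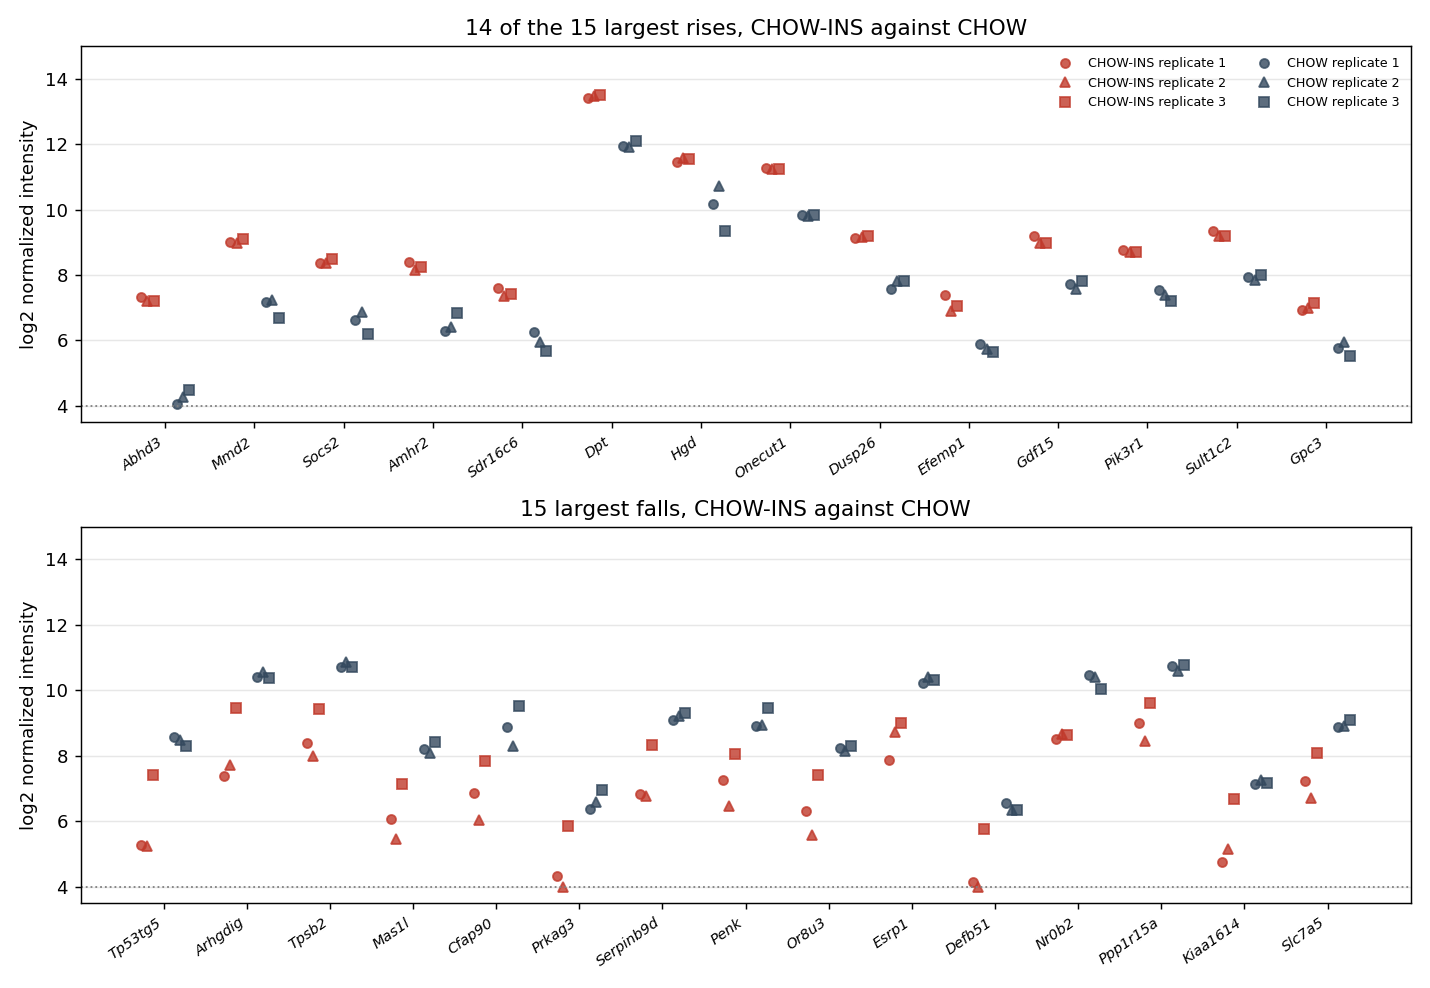
Points are log2 normalized intensities of 14 of the 15 largest rises (top) and the 15 largest falls (bottom) on the CHOW-INS arrays (red, left) and the CHOW arrays (grey, right), with a symbol for each replicate and a dotted line at the floor. In each fall but Nr0b2 the square of CHOW-INS replicate 3 sits above the other CHOW-INS points, as for Tp53tg5 with 171 against 38 and 37, while the CHOW-INS points of the rises lie close together.

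Few markers of other cells passed the test, while the summed level of 4 marker lists lay wholly lower on the CHOW-INS arrays. In a bulk sample fewer cells of a type, less RNA per cell and the lower raw signal of the CHOW-INS arrays cannot be told apart. Each of the 4 lists holds markers that were not detected, and the groups did not overlap in 34.8% of all genes. Of 12 stellate cell and fibroblast markers, 3 rose, which became 1 without CHOW-INS replicate 1 and 0 without scaling. The proteoglycan Dcn changed by 0.30 (adjusted p = 0.00136), the collagen chain Col1a2 by 0.68 (adjusted p = 0.0188), and Col1a1 was at least 1.41-fold higher (adjusted p = 0.0158), while the summed intensity of the list was 9670 to 10300 on the CHOW-INS arrays and 9620 to 10100 on the CHOW arrays, with Hgf not detected. The matrix genes Dpt and Efemp1 rose beside them, and the part of these cells in those rises was not tested. Of 11 endothelial markers Vwf, the von Willebrand factor, rose (0.75, adjusted p = 0.00482), with sums of 15400 to 15900 and 14400 to 16300 in CHOW-INS and CHOW livers and Clec4g not detected. Of 13 Kupffer cell and macrophage markers the scavenger receptor Marco fell (-0.49, adjusted p = 0.00123, but 0.04 with median centring) and Cd68 rose (0.20, adjusted p = 0.043, a call lost without any of the 6 arrays), with sums of 51400 to 53300 and 49500 to 53300. Among 9 cholangiocyte markers Anxa4 fell (-0.32, or 0.19 with centring), with sums of 5270 to 5370 and 5060 to 5580 and Krt7, Cftr and Tff3 not detected. No marker of neutrophils (11), lymphocytes (16), erythroid cells (5), adipocytes (8) or exocrine pancreas (6) passed, with CHOW-INS and CHOW sums of 885 to 1000 and 1060 to 1180, 2710 to 2940 and 3280 to 3330, 651 to 826 and 712 to 880, 6690 to 7460 and 6230 to 7430, and 4490 to 4710 and 5240 to 5880. The neutrophil, lymphocyte and pancreas sums lay wholly lower on the CHOW-INS arrays, and 5 of the 11 neutrophil markers, Cd3e, Cd79a and Cd79b of the lymphocyte list and Cel, Pnlip and Cela2a of the pancreas list were not detected. Of 8 skeletal muscle markers Acta1, muscle actin, was at least 1.25-fold lower (adjusted p = 0.00594), with Myh4, Myh1 and Actn3 not detected and sums of 472 to 522 on the CHOW-INS arrays and 655 to 707 on the CHOW arrays, also wholly lower.

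Few genes of the housekeeping complexes passed the test. Of 28 ribosomal protein genes Rps16 and Rps12 rose, by 0.57 and 0.25, and of 39 proteasome genes Psmd11 and Psmd5 rose, by 0.56 and 0.42. Of 74 subunits of the respiratory chain and ATP synthase, Ndufb5 and Uqcrb rose by 0.42 and 0.18, Ndufa4 was at least 1.24-fold higher, and Ndufb8 fell (-0.22, or 0.33 with centring). The medians of these lists, 0.00, 0.02 and -0.02, became 0.52, 0.57 and 0.52 when arrays were centred on their medians. Of 22 cell cycle genes, the replication genes Mcm4 and Tyms rose by 0.71 and 0.35, Aurkb was called but detected on no array, and Ccnd1, cyclin D1, fell (-0.53, or 0.01 with centring). Of 22 interferon-induced genes, 3 rose, among them Ifi44 by 0.44 and Usp18 by 0.27, and none fell at an adjusted p under 0.05.

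The difference between INS arrays and arrays without INS was then set beside the same difference on the other diets, whose arrays are separate. HF-INS livers differed from HF livers in 846 genes (4.27%) and HF-NDGA-INS livers from HF-NDGA livers in 4062 (20.5%). The difference on chow differed from that on the high-fructose diet in 1013 genes (5.12%) and from that on the NDGA diet in 5826 (29.4%) by the interaction term of limma. Interactions above 0 made up 71.8% of the 1013 genes after quantile normalization, 88.0% with median centring and 55.6% without scaling, and 62.4%, 79.5% and 3.95% in the comparison with the NDGA diet. The first of these counts became 642 without CHOW-INS replicate 1, 541 without HF-INS replicate 1, 622 without HF replicate 1 and 626 without HF replicate 3.

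Of 18 growth hormone and IGF genes, 7 had an INS difference on chow that differed from that on the high-fructose diet, 4 above 0 and 3 below, and 12 differed from that on the NDGA diet, 4 above 0 and 8 below. Socs2 rose by 1.83 on chow, whereas on the high-fructose diet it measured 149, 211 and 177 on the HF-INS arrays, against 441, 428 and 529 on the HF arrays, a change of -1.39 (SE 0.21, adjusted p = 0.00244), and the difference of 3.22 had an adjusted p of 5.53e-05. Bcl6 fell on chow but measured 293, 312 and 316 on the HF-INS arrays, against 143, 144 and 167 on the HF arrays, and 1180, 997 and 839 on the HF-NDGA-INS arrays, against 544, 529 and 443 on the HF-NDGA arrays. Its changes of 1.03 and 0.98 differed from the chow value with adjusted p of 2.34e-06 and 1.26e-06. Cish rose by 2.76 on the NDGA diet, where it measured 688, 736 and 571 on the HF-NDGA-INS arrays, against 100, 115 and 81 on the HF-NDGA arrays, and changed by -0.16 on the high-fructose diet (adjusted p = 0.605). Pik3r1 changed by -0.30 and -0.47 on the high-fructose and the NDGA diet and Nr0b2 by -0.34 and 0.14, and each differed from its chow change at an adjusted p under 0.05. Igfbp1 and Cyp7a1 rose on every diet, by 0.51 on chow, 1.25 on the high-fructose diet and 2.26 on the NDGA diet for Igfbp1 and by 0.41, 1.01 and 1.04 for Cyp7a1.

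**Figure D4:**
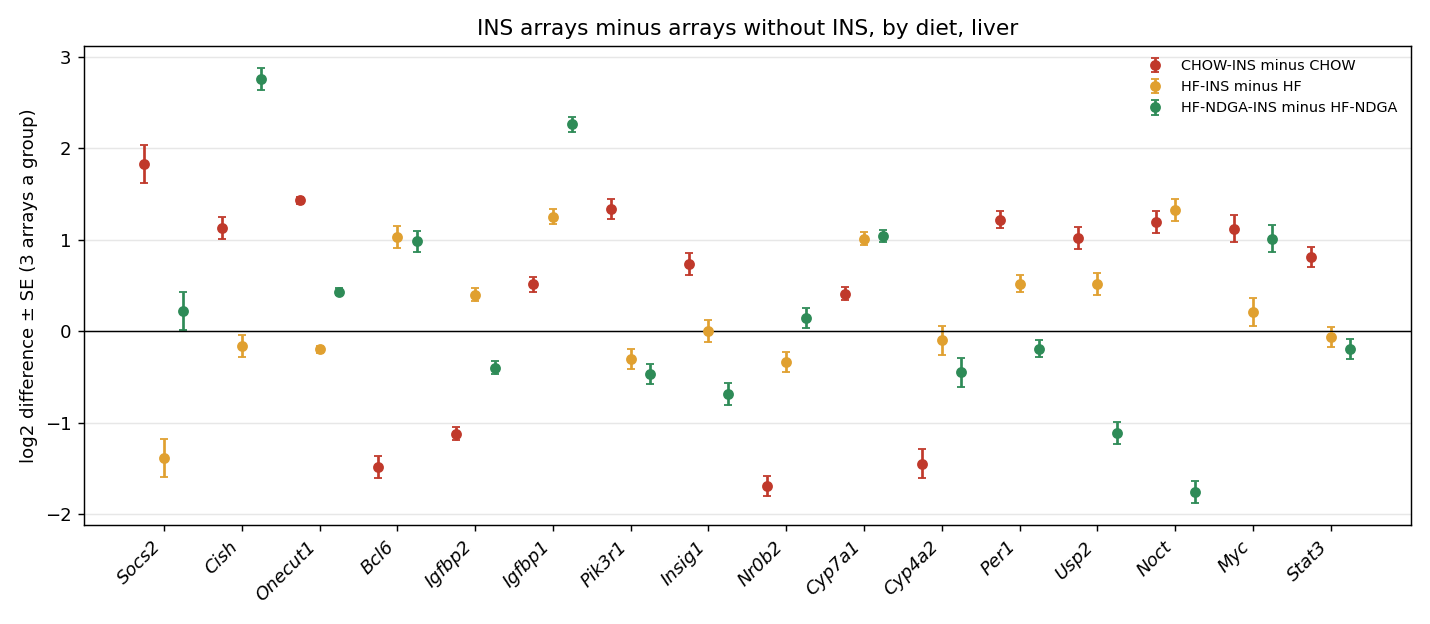
Points are log2 differences between INS arrays and arrays without INS on chow (red), the high-fructose diet (amber) and the NDGA diet (green) for 16 genes, with bars of 1 SE from limma (3 arrays a group). Bcl6 lies at -1.49 on chow and at 1.03 and 0.98 on the other diets, while Igfbp1 and Cyp7a1 lie above 0 on each diet.

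RT1-Bb, Cd52, RT1-S3, Rhd and Alox15 were among the 10 largest interactions with the high-fructose diet. RT1-Bb, a class II histocompatibility gene, measured 2113, 1413 and 1797 on the CHOW-INS arrays, against 3463, 2758 and 3441 on the CHOW arrays (-0.87, SE 0.12, adjusted p = 0.000831). On all 3 HF-INS and all 3 HF-NDGA-INS arrays it was at the floor of 16, against 676, 648 and 638 on the HF arrays and 1431, 1552 and 1546 on the HF-NDGA arrays. Its chow change was -0.35 with median centring and did not pass there (adjusted p = 0.138). Cd52, a lymphocyte surface protein, measured 110.4, 117.1 and 138.3 on the HF-INS arrays, against 676.8, 699.9 and 715.9 on the HF arrays, while it measured 118.2, 93.6 and 108.6 on the CHOW-INS arrays, against 92.1, 87.7 and 99.7 on the CHOW arrays. RT1-S3, a class I histocompatibility gene, Rhd, a blood group protein of red cells, and the lipoxygenase Alox15 were likewise brighter on every HF array than on any other liver array, and none of the 4 passed the test on chow (adjusted p of 0.437 to 0.878), where Rhd and Alox15 were not detected. All 5 erythroid markers were lower on the HF-INS arrays than on the HF arrays, with a median of -2.12, and all 5 passed the interaction with a median of 1.90. Of 16 lymphocyte markers 1 passed that interaction and of 11 neutrophil markers 1, while none of 13 Kupffer cell and macrophage markers did at an adjusted p under 0.05. Gadd45g measured 6436, 6556 and 6051 on the HF-NDGA-INS arrays, against 661, 682 and 596 on the HF-NDGA arrays, but 9208, 9887 and 10102 on the CHOW-INS arrays, against 8702, 9222 and 8378 on the CHOW arrays.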

How the data were processed

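The authors deposited background-subtracted whole-number intensities of 24358 probes per array, from Cy5-labelled RNA on Rat OneArray slides, and per the file headers a detection p-value per probe and array. The deposited values run from -7 to 65505 and differ in their array medians, so the quantile normalization and log2 step named in the methods are not in them. Background subtraction is inferred from the negative values, and how the detection p-value was made is not given in the sources used here. The array number, 3 of 1 pool for each group, limits the precision.

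Of the probes, 21270 carry 1 gene symbol and 1175 several, which were kept as 1029 joint entries and not named in the text, while the 1913 (7.85%) with none were left out. Older symbols were updated through the RefSeq table of GRCr8, with 13431 symbols current, 2601 updated and 2741 kept as in the file. The 18 liver arrays were quantile normalized together, intensities under 16 were raised to 16, and log2 was taken. Normalized intensities in the text are on the linear scale. The probe with the highest mean represented a gene, which gave 19800 genes (joint entries included), 2510 of them with several probes.

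Groups came from the diet labels, with 6 groups of 3 arrays. Each gene was fitted with limma 3.58.1 (lmFit, eBayes; R 4.3.3), 1 mean a group with 12 residual degrees of freedom, and p-values were adjusted over the 19800 genes by the Benjamini-Hochberg method and called under 0.05. All tests were two-sided. An interaction is the INS difference on chow minus that on another diet in the same fit. The fit was also run on simulated data with independent noise on each array. Such data hold no brightness shifts between arrays and no pools of rats, so the run does not bear on either.

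A gene detected on no array of the dimmer group is given as "at least N-fold", the mean of the brighter group over, per array, the higher of the lowest detected signal and the gene's own. A gene detected on no array of either group gets no fold. Probes at 65000 or more are called saturated.

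Named genes are the 15 largest rises and 15 largest falls among called genes whose groups do not overlap. Also named are up to 8 called members of each list, or all of them in the immediate early list, and defining members that were not called. The 10 largest interactions with each diet complete them, and some genes picked in these ways are not described. Some members of the lists are counted but not reported here by name. Apart from these, the promoters shown were chosen after their values were seen. The comparison, the lists and the cell type markers were chosen with earlier results of these data known. Alternatives were median centring, no scaling, the 6 chow arrays alone, other floors or an offset, a detection filter, probe means, an unmoderated model, an intensity trend and each array left out in turn.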

Additional observations from a re-analysis of the deposited data

Results flagged for a closer look

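The INS difference on chow differed from the INS difference on another diet by the interaction term in 1013 genes for the high-fructose diet and in 5826 genes for the NDGA diet, and these counts depend on the scaling. The values below are the log2 INS difference on chow minus that on the other diet, each at an adjusted p under 0.05 in limma.

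Against the high-fructose diet the value was 3.22 for Socs2, 1.29 for Cish, 1.63 for Onecut1, -2.52 for Bcl6 and -1.52 for Igfbp2 among the growth hormone genes. It was 1.64 for Pik3r1, -1.36 for Nr0b2 and 0.69 for Per1. Among the largest interactions it was 4.48 for RT1-Bb, 2.85 for RT1-S3, 2.71 for Cd52, 2.93 for Rhd and 4.52 for Alox15. RT1-Bb was at the floor of 16 on all HF-INS arrays and Alox15 on 5 of the 6 chow arrays, so the size of both values is set in part by the floor.

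Against the NDGA diet the value was 1.62 for Socs2, -1.63 for Cish, 1.00 for Onecut1, -2.48 for Bcl6 and -0.72 for Igfbp2. It was 1.80 for Pik3r1, -1.83 for Nr0b2, 1.41 for Per1, 2.95 for Noct and -3.15 for Gadd45g. Noct rose by 1.32 on the high-fructose diet, as on chow, and changed by -1.76 on the NDGA diet. RT1-Bb, at the floor on all HF-NDGA-INS arrays, gave 5.69. Groups of 3 arrays are too small for a search for single arrays that stand apart.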

How the results depend on the processing

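The count of 2431 genes became 6674 with median centring, 1138 without scaling and 1381 with the 6 chow arrays alone, and ranged over 739 to 3833 with 1 array left out. Under the other 7 settings it was 1864 to 3017. The 177 genes with a fold of 2 became 330 with centring, 421 without scaling, 84 with the 6 arrays, 266 with a floor of 1 and 99 with a floor of 64, and 59 to 297 with 1 array left out. The interaction count of 1013 became 309 with centring, 331 without scaling and 666 with a floor of 1, and 541 to 1068 with 1 array left out. The count of 5826 became 9530 with centring, 8084 without scaling and 4150 to 7298 with 1 array left out. The median interaction shifted by 0.11 and 0.25 log2 units with centring and by -0.15 and -0.43 without scaling, for the high-fructose and the NDGA diet.

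Of 141 called genes named in the text, 118 kept the call with centring, 77 without scaling, 77 with the 6 arrays, 122 to 140 under the other 7 settings and 75 to 110 with 1 chow array left out, and 67 kept it whichever array was left out.

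Some changes turned their sign, and the cause was not tested. With centring the log2 change was 0.45 for Igf1, 0.08 for G6pc1, 0.04 for Lss, 0.48 for Hmgcs1, 0.11 for Abcb11, 0.09 for Abcb4, 0.31 for Abcc2, 0.16 for Ech1, 0.22 for Cyp2d4, 0.26 for Cyp2c22, 0.16 for Cyp3a62, 0.30 for Akr7a3, 0.16 for Pigr, 0.04 for Marco, 0.19 for Anxa4, 0.01 for Ccnd1 and 0.33 for Ndufb8. Without scaling it was -0.15 for Phka2, 0.02 for Hmgcs1, -0.08 for Klf6, -0.22 for Nr4a2, -0.07 for Asns, -0.06 for Aurkb, -0.09 for RT1-S3, -0.30 for Cd52, -0.33 for Rhd and -0.15 for Alox15. With probe means it was -0.14 for Irs2 and 0.16 for Gpx2. Hmgcs1 ranged over -0.13 to 0.09 with 1 array left out, the highest without CHOW-INS replicate 1, and RT1-S3 gave -0.12 without CHOW replicate 3.

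No paired analysis was possible because the labels give no replicate numbers that groups share. Leaving out the other 12 liver arrays was added after the data were seen. Signal over background limits the dim genes, since 52.42% to 60.25% of the probes were detected on a chow array and 282 called genes were detected on no array of their brighter group. At an unadjusted p under 0.05 there were 6359 genes.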
